A study of Mus musculus with 28 samples.

Results

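A set of 9 little-studied transcripts was followed across genotypes, treatments and ovarian cell types of the mouse. The set was *9930012K11Rik*, *2810029C07Rik*, *1700007K13Rik*, *4833428L15Rik*, *Gm648*, *Ankrd65*, *Ms4a10*, *Cst6* and *Acp4*, that is 9 of the 44674 genes in the whole-ovary table, and 8 of them were among the 31053 genes of the single-cell libraries. *2810029C07Rik* is not in that gene list. The genes were chosen by their higher values with IR than without it in wild-type ovaries or oocytes, so their wild-type values are given as a description and without a test. Their values in *Chek2*-/- ovaries, which did not enter that choice, were tested.

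After ionizing radiation (IR) breaks DNA, the kinase CHEK2 (CHK2) passes the signal to transcription factors of the p53 family. In the oocytes of primordial follicles, the resting reserve of the ovary, the main effector is TAp63, and oocytes that are not repaired die. Neighbouring granulosa and stromal cells rely on p53 itself, whose targets include inhibitors of the cell cycle, death factors of the BCL2 family and the feedback regulator *Mdm2*. Few of the 9 transcripts have a described place in this pathway. *1700007K13Rik* (*Pierce1*) encodes a small protein of the microtubules of motile cilia and is known as a p53-induced gene. *Cst6* encodes cystatin E/M, a secreted inhibitor of cysteine proteases such as legumain. *Acp4* encodes a membrane-bound acid phosphatase known for its part in tooth enamel. *Ms4a10* belongs to a family of proteins that cross the membrane 4 times, and *Ankrd65* is named for its ankyrin repeats, which bind other proteins. *2810029C07Rik* and *4833428L15Rik* are annotated as noncoding RNAs, while *9930012K11Rik* and *Gm648* are annotated as protein coding.

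C57BL/6J (wild-type, WT) females and females with the *Chek2*tm1b(EUCOMM)Hmgu allele (*Chek2*-/-, labelled Chek2KO) received 0.5 Gy of whole-body gamma radiation from a caesium source (IR) or a sham treatment (nonIR), and ovaries were taken after 6 h. Whole-ovary RNA came from animals 7 to 9 days old, with 1 library from the paired ovaries of 1 female and 6 libraries in each of the 4 groups. Single cells came from animals 7 days old, with 1 library per condition and the ovaries of 4 females pooled in each. The mutant allele is in every cell of the animal and not in oocytes alone, and wild-type littermates are not stated as the controls. In whole ovaries fewer cells of a type and less RNA per cell cannot be told apart.

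Whole-ovary libraries held 17825167 to 32605747 counts, with medians of 22621159 to 27699073 in the 4 groups. *Chek2* was at 22.4 ± 1.66 CPM (counts scaled to library size; mean ± SD, n = 6) in nonIR and 21.1 ± 1.98 CPM in IR wild-type ovaries, against 3.75 ± 0.545 and 3.96 ± 0.526 CPM in nonIR and IR *Chek2*-/- ovaries, so the libraries follow their labelled genotype. In 5 libraries the summed CPM of oocyte, erythroid or neutrophil markers lay over 500 CPM from the median of the group. These were *Chek2*-/- nonIR replicates 5 and 6, *Chek2*-/- IR replicates 2 and 6 and wild-type IR replicate 3. Counts of genes called are also given without them. The fibroblast sum was not used for this choice. It was 5654 CPM in wild-type nonIR replicate 2, for example, against a group median of 4873 CPM. Of 26790 genes with at least 10 counts over all libraries, 230 (0.859%) were higher and 58 (0.216%) lower with IR in wild type, called at 2-fold or more and an adjusted p of up to 0.05 (edgeR quasi-likelihood test). Without the 5 libraries 324 genes were called in wild type, against these 288. In *Chek2*-/- ovaries 1 gene (0.00373%) was higher and 0 (0%) were lower by the same test, with 1179 genes at an unadjusted p under 0.05. DESeq2 called 9 and limma-voom 1, and edgeR called 0 without the 5 libraries.

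The 9 genes lie on 8 chromosomes, and all but *Ankrd65* are on the minus strand. Positions are those of the GENCODE annotation of GRCm38, and distances to neighbouring genes are those of RefSeq. *9930012K11Rik* (ENSMUSG00000044551) is at chr14:70154405-70159502, 614 bases from *Ccar2*. *2810029C07Rik* (ENSMUSG00000096995), a bidirectional promoter lncRNA, is at chr12:111572317-111574402, and its start lies 103 bases from that of *Mark3*. *1700007K13Rik* (ENSMUSG00000026831) is at chr2:28462001-28466332 and has no gap to *Mrps2* in RefSeq, while their GENCODE spans do not overlap. *4833428L15Rik* (ENSMUSG00000097074) is at chr9:45416626-45431730, antisense to *Dscaml1*, with which it shares 2 exonic bases of its 1812. *Gm648* (ENSMUSG00000064016) is at chrX:56543874-56549606 and *Ankrd65* (ENSMUSG00000078487) at chr4:155790439-155799503 on the plus strand. *Ms4a10* (ENSMUSG00000024731) is at chr19:10962293-10974670 and *Cst6* (ENSMUSG00000024846) at chr19:5344705-5349574. *Acp4* (ENSMUSG00000012777) is at chr7:44252148-44257378 and shares 172 of its 1749 exonic bases with *2410002F23Rik* on the opposite strand. The sources do not give whether the whole-ovary counts used strand, so reads in those shared bases cannot be told apart.

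Promoter windows reaching from 250 bases before to 50 bases after the start were at hand in RefSeq (GRCm38) for 7 of the 9 genes, and *9930012K11Rik* and *Cst6* had none. Each was searched for the p53-family response element, a pair of 10-base arms with up to 13 bases between them, allowing at most 3 mismatches in all and keeping the C and G at the core of each arm. The element reads alike on both strands. It was found in 4 of the 7 windows (57.1%), against 5114 of 32851 windows of all genes (15.6%) and 15 of 33 windows of the list of p53-pathway genes used further on (45.5%). With at most 2 mismatches 3 of the 7 windows held it, against 4.09% of all windows, and with at most 1 mismatch 1 of the 7, against 0.627%. The 4 windows are shown because they hold the match. They are written 5′ to 3′ on the strand of the gene, with the arms in capitals and the remaining bases, spacers included, in lower case.
1700007K13Rik, chr2:28466275-28466574, minus strand: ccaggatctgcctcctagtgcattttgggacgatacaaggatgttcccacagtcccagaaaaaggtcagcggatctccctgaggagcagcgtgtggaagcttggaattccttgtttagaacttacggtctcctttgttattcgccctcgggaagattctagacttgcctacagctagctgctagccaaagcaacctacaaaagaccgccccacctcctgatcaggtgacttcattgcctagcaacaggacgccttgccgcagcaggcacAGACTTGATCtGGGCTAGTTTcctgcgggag
4833428L15Rik, chr9:45431183-45431482, minus strand: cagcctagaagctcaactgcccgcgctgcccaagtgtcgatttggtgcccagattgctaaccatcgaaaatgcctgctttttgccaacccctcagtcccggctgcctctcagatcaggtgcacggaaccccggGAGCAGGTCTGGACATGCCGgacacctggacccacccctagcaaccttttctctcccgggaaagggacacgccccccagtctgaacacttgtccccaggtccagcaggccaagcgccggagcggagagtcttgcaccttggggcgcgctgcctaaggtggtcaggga
Gm648, chrX:56549557-56549856, minus strand: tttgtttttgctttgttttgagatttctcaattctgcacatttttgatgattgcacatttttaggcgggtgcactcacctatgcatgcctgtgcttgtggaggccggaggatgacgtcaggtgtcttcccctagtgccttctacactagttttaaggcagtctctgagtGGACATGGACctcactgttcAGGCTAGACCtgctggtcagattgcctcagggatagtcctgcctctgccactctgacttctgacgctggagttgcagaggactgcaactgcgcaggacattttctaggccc
Ms4a10, chr19:10974651-10974950, minus strand: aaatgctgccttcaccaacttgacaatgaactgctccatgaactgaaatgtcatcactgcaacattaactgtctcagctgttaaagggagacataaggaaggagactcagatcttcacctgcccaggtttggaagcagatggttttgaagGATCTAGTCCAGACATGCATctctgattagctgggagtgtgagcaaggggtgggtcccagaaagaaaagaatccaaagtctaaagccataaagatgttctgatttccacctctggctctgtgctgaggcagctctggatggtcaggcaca

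The best match was that of *1700007K13Rik*, with 1 mismatch and a spacer of 1 base, beginning 19 bases after the start. *4833428L15Rik* and *Ms4a10* had 2 mismatches and no spacer, beginning 117 and 100 bases before the start. Starts here are those of RefSeq, which for some genes differ from the GENCODE positions above. For *4833428L15Rik* the whole window lies inside the GENCODE span. *Gm648* had 3 mismatches and a spacer of 10 bases. The windows of *2810029C07Rik*, *Ankrd65* and *Acp4* held no such letters. That of *Ankrd65* begins after its GENCODE start, which was not searched. A match is a likeness of letters in a short window and says nothing of binding, which was not measured here.

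In whole ovaries all 9 genes were low without irradiation, and in each the 6 irradiated wild-type libraries lay above the 6 non-irradiated ones. Only 2 of the 9 averaged at least 1 CPM in non-irradiated wild-type ovaries, against 8 of 9 in irradiated ones. Groups separated in this way for 1.68% of all genes tested, and the choice of these genes made the separation likely, so nothing is read from the count. The median of the 9 log2 fold changes was 3.85, against −0.0041 over all genes tested.

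Of the noncoding RNAs, one was seen without irradiation and the other was not. *2810029C07Rik* lay at 0.407 to 1.09 CPM (median 0.818) in nonIR and at 8.23 to 17.4 CPM (median 11.04) in IR libraries of wild type. The log2 fold change was 3.85 ± 0.21 (SE). *4833428L15Rik*, which shares its locus with the adhesion gene *Dscaml1*, had no count in any of the 6 nonIR libraries and 0.640 to 1.16 CPM (median 0.871; 124 counts in all) in the IR libraries. Set against a floor of 3 counts over the 6 nonIR libraries (0.0201 CPM), it was at least 44.0-fold higher. It is the only one of the 9 without a count in non-irradiated wild-type ovaries.

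Among the coding genes of unknown function, *9930012K11Rik* had the highest level throughout. It went from 4.27 to 5.28 CPM (median 4.64) in nonIR to 16.6 to 30.4 CPM (median 17.6) in IR libraries of wild type, with a log2 fold change of 2.06 ± 0.12 (SE). Its libraries were tight apart from IR replicate 4, the highest of the group. *Gm648* moved from 0.102 to 0.171 CPM (median 0.129) to 1.48 to 3.58 CPM (median 2.30), a log2 fold change of 4.07 ± 0.41. *Ankrd65*, the ankyrin repeat gene, was near 0 without irradiation, at 0 to 0.0895 CPM (median 0.0492; 7 counts over 5 of 6 libraries). With irradiation it lay at 3.63 to 7.06 CPM (median 4.30), and its log2 fold change of 6.55 ± 0.46 was the highest of the 8 genes with a count before irradiation.

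The genes with a named product had wild-type folds of 4.35 to 17.5. *1700007K13Rik*, the cilia gene, went from 0.0949 to 0.313 CPM (median 0.244) to 2.95 to 5.55 CPM (median 3.68), a log2 fold change of 4.10 ± 0.29 (SE). *Cst6*, the protease inhibitor, was at 0.0621 to 0.308 CPM (median 0.161) in nonIR and 0.739 to 2.30 CPM (median 1.77) in IR ovaries, a log2 fold change of 3.12 ± 0.40. *Acp4*, the phosphatase, went from 1.297 to 2.02 CPM (median 1.78) to 7.39 to 13.4 CPM (median 8.88), a log2 fold change of 2.45 ± 0.24. *Ms4a10* had the second smallest change, from 0.308 to 0.805 CPM (median 0.652) to 1.96 to 3.03 CPM (median 2.58), a log2 fold change of 2.11 ± 0.26. Wild-type IR replicate 4 was the highest of its group for 7 of the 9 genes and replicate 5 the lowest for 5 of them. Replicate 4 also had the highest sums of its group for 6 epithelial markers (1061 CPM, against 432 to 690 CPM in the other libraries) and 5 markers of primordial-type oocytes (166 CPM). It had the lowest sums for 8 oocyte (1991 CPM), 6 growing oocyte (3070 CPM) and 8 granulosa markers (1342 CPM), and the lowest depth (17825167 counts). The part of these differences in its values was not tested.

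**Figure D1:**
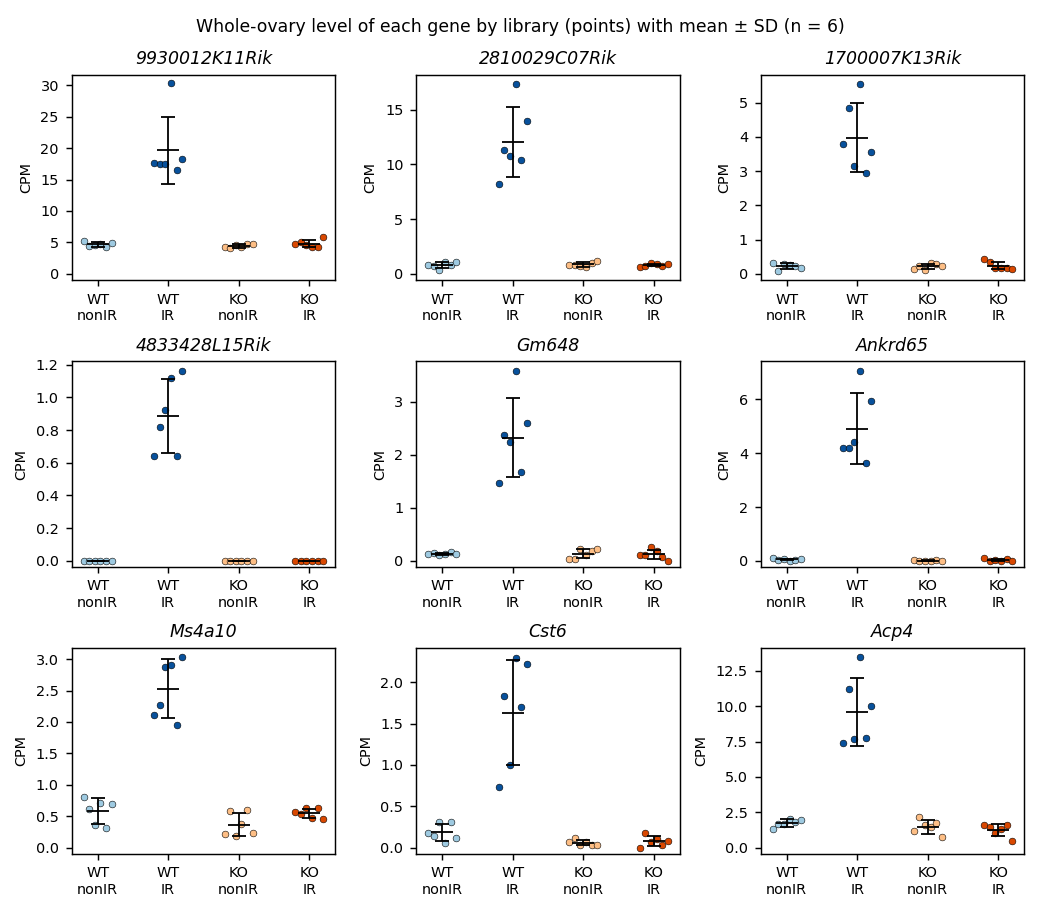
CPM of each gene in the 24 whole-ovary libraries (points), with the mean and SD of each group of 6 as bars; KO is Chek2KO and each panel has its own linear axis. The 6 WT IR libraries lie above all others in every panel, and the Chek2KO groups overlap each other.

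Per kilobase of exon, *9930012K11Rik* had the highest level with and without irradiation. In IR wild-type ovaries the order was *9930012K11Rik* (7.58 ± 2.04 CPM per kilobase, SD, n = 6), *2810029C07Rik* (6.15 ± 1.64), *Acp4* (5.48 ± 1.39), *1700007K13Rik* (4.12 ± 1.05), *Ankrd65* (3.71 ± 0.994), *Ms4a10* (2.50 ± 0.461), *Gm648* (2.24 ± 0.722), *4833428L15Rik* (0.488 ± 0.125) and *Cst6* (0.399 ± 0.156). Neighbours in this order had overlapping libraries except *Gm648* and *4833428L15Rik*. Without irradiation *9930012K11Rik* (1.81 ± 0.137 CPM per kilobase) was also first, above all libraries of *Acp4* (0.999 ± 0.147), which came next. *Ankrd65* moved from the eighth place without irradiation (0.0382 ± 0.0245 CPM per kilobase) to the fifth with it.

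In *Chek2*-/- ovaries none of the 9 genes passed the threshold after the same dose. Only 8 of them had a count there, and *4833428L15Rik*, with none, could not be called and overlaps at 0. All had an edgeR adjusted p of 1 over the 26790 genes, and the irradiated and non-irradiated groups overlapped for each. By edgeR 1 of the 9 had an unadjusted p under 0.05, beside 1179 of the 26790 genes. DESeq2 called 0 of them (0 at an unadjusted p under 0.05) and limma-voom 0 (1). In the same comparison 24 of all genes tested (0.0896%) had groups that did not overlap in this direction, and the 1 gene called was *Ano3*, named here after its value was seen. The 9 genes stayed uncalled without the 5 libraries with unusual sums of oocyte, erythroid or neutrophil markers.

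For the better expressed genes the *Chek2*-/- data bound the change closely. *9930012K11Rik* was at 4.08 to 4.76 CPM (median 4.42) in nonIR and 4.25 to 5.88 CPM (median 4.66) in IR *Chek2*-/- ovaries, a log2 fold change of 0.11 with a 95% interval of −0.14 to 0.37. *2810029C07Rik* lay at 0.628 to 1.19 CPM (median 0.813) and 0.637 to 1.00 CPM (median 0.818), a log2 fold change of −0.08 (−0.53 to 0.36). *Acp4* lay at 0.730 to 2.14 CPM (median 1.52) and 0.493 to 1.63 CPM (median 1.37), a log2 fold change of −0.23 (−0.74 to 0.28).

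*1700007K13Rik* had overlapping ranges in the *Chek2*-/- groups, at 0.115 to 0.333 CPM (median 0.232) without and 0.152 to 0.424 CPM (median 0.184) with irradiation, a log2 fold change of 0.14 (95% interval −0.52 to 0.79). *Ms4a10* came nearest to a change. It was at 0.191 to 0.599 CPM (median 0.300) in nonIR and 0.455 to 0.633 CPM (median 0.552) in IR ovaries, and 6 of 6 IR libraries were above the nonIR median. Its log2 fold change was 0.58 (−0.0013 to 1.15), with an unadjusted p of 0.048 and an adjusted p of 1 by edgeR's quasi-likelihood test. The intervals use a slightly wider limit than that test, so the one for *Ms4a10* includes 0 although its unadjusted p is under 0.05.

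The remaining genes had few reads in *Chek2*-/- ovaries and the data limit their change less. *Gm648* had 22 counts in the 6 nonIR and 20 in the 6 IR libraries, a log2 fold change of −0.18 (95% interval −1.17 to 0.82). *Cst6* had 10 and 13 counts, a log2 fold change of 0.31 (−0.89 to 1.51). *Ankrd65* had 2 and 6 counts, a log2 fold change of 1.24 (−0.52 to 3.01), so that a change of several fold was not detectable at this depth. *4833428L15Rik* had 0 counts in all 12 *Chek2*-/- libraries, which at 3 counts allows a level of up to 0.0187 CPM in nonIR and 0.0181 CPM in IR ovaries.

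**Figure D2:**
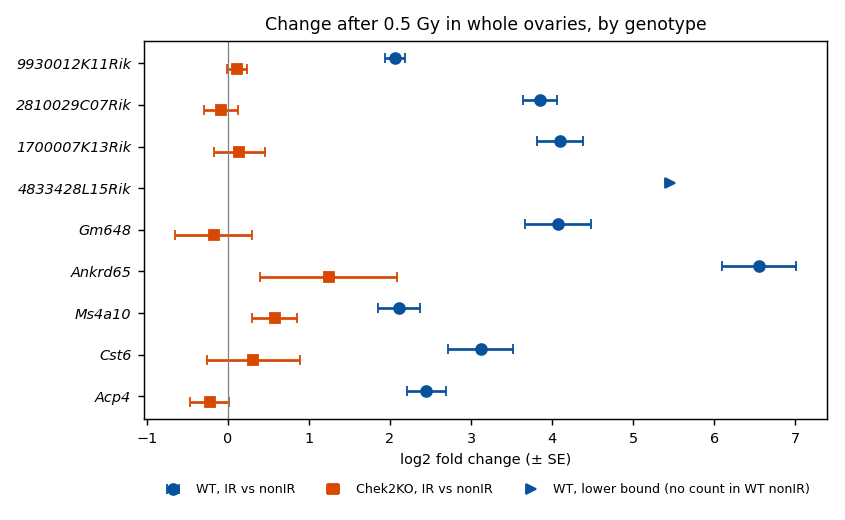
Fitted log2 fold change (± SE) of each gene in irradiated against non-irradiated whole ovaries, in wild-type (circles) and Chek2KO (squares) animals, 6 libraries per group; the triangle is a lower bound for 4833428L15Rik, which has no Chek2KO point because it had 0 counts there. Wild-type values run from 2.06 to 6.55 and Chek2KO values from −0.23 to 1.24.

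The summed level of primordial-type oocyte markers was lower in irradiated wild-type ovaries, where 2 of the 5 markers had an adjusted p of up to 0.05. The sum of 5 markers of primordial-type oocytes was 167 to 229 CPM (median 187) in nonIR and 111 to 166 CPM (median 130) in IR wild-type ovaries, whereas in *Chek2*-/- ovaries it was 137 to 261 CPM and 178 to 248 CPM. Of these markers *Sohlh1* had a wild-type log2 change of −0.78 (edgeR adjusted p = 0.00053) and *Lhx8* one of −0.46 (edgeR adjusted p = 0.027), both under 2-fold, while for *Sycp1*, *Sycp3* and *Figla* the groups overlapped (edgeR adjusted p = 0.56, 0.17 and 0.20). Whether this bears on the values of the 9 genes was not tested. The sum of 8 oocyte markers, *Dppa3* and *Zp3* among them, was 2039 to 2499 CPM and 1991 to 2363 CPM in the wild-type groups, and none of the 8 passed the threshold. The sum of 6 neutrophil markers reached 1431 CPM in wild-type IR replicate 3 and 1614 CPM in *Chek2*-/- IR replicate 2. It was at most 3.05 CPM in the other IR libraries and at most 12.1 CPM in all nonIR libraries. The part of these markers in the changes above was not tested. Without the 5 libraries the wild-type log2 fold changes of the 9 genes kept their sign.

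Some known genes of the p53 pathway rose in the same irradiated wild-type ovaries. Of 35 listed genes 12 were higher and 0 lower past the threshold (edgeR quasi-likelihood test), beside 0.859% and 0.216% of all genes, and the median log2 fold change of the list was 0.60. *Ccng1*, a cyclin of the p53 feedback loop, went from 39.7 ± 2.52 to 162 ± 8.33 CPM (mean ± SD, n = 6), or by 2.03 on the log2 scale (edgeR adjusted p = 2.6e-19). *Mdm2*, the ubiquitin ligase that limits p53, changed by 1.33 (edgeR adjusted p = 1.2e-14), the death receptor *Eda2r* 1.78 (edgeR adjusted p = 4.5e-14) and the BCL2-family death factor *Bbc3* (PUMA) 1.89 (edgeR adjusted p = 7e-11). Without the 5 libraries 14 of the 35 were called in wild type. In *Chek2*-/- ovaries 0 of the 35 passed the threshold, and the median was 0.07. The list was chosen with results of these data known.

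Of 97 relatives of the 9 genes tested, 2 (2.06%) were higher past the threshold, beside 0.859% of all genes. In wild-type ovaries 1 of 16 other Ms4a genes and 1 of 12 other cystatins were higher past the threshold and none lower, and the counts were 0 in either direction among 5 other acid phosphatases, 4 proteases bound by cystatin E/M, 44 other Ankrd genes and 16 genes of motile cilia. The 2 that passed were *Ms4a3*, a gene of immature myeloid cells, at a median of 0.108 CPM in nonIR and 0.163 CPM in IR ovaries with 1 library at 23.7 CPM (log2 fold change 4.81, edgeR adjusted p = 0.036), and *Cst7*, a cystatin of immune cells, which had at most 0.0447 CPM in nonIR and at most 4.64 CPM in IR libraries (log2 fold change 6.13, edgeR adjusted p = 0.038). Neither was called without the 5 libraries, which include wild-type IR replicate 3 with its neutrophil markers. In both, the IR and nonIR libraries overlapped.

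Of 36 listed genes next to the 9 on the chromosome 29 were tested and 0 passed the threshold, beside 0.859% higher and 0.216% lower among all genes, so nothing is read from the count. They had a median log2 fold change of −0.0091. *Mark3*, whose start faces that of *2810029C07Rik*, had a log2 fold change (IR against nonIR) of −0.04 (adjusted p = 0.87, edgeR), and *Mrps2*, next to *1700007K13Rik*, 0.04 (edgeR adjusted p = 0.81). *Dscaml1*, on the other strand from *4833428L15Rik*, had 0.48 (edgeR adjusted p = 0.91). *Ccar2*, next to *9930012K11Rik*, had 0.03 (edgeR adjusted p = 0.95).

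Over the 24 libraries the profiles most like those of the 9 genes came from a small set of other genes, compared by Pearson's r of log2 CPM among genes with a mean of at least 1 CPM in some group. *Lhx3*, a homeobox gene, was nearest to *9930012K11Rik* (r = 0.98), *1700007K13Rik* (0.98), *4833428L15Rik* (0.99) and *Ankrd65* (0.98). *Slc6a3*, the dopamine transporter, was among the 3 nearest for 5 of the genes. *2810029C07Rik* was nearest to *Ccdc17* (r = 0.98), *Gm648* to *Arhgef4* (0.96), *Acp4* to the p53 relative *Trp73* (0.96), *Cst6* to *Sytl1* (0.93) and *Ms4a10* to *Mcm3ap* (0.92). *Mdm2* was among the 3 nearest of *2810029C07Rik* and *4833428L15Rik*. All these values share the same 4 groups and are a description over 24 libraries.

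The single-cell libraries show in which cells the transcripts lay. After the filters on cells 9666 WT nonIR, 10345 WT IR, 9091 Chek2KO nonIR and 9172 Chek2KO IR cells were kept, and 4.41% to 5.88% of them were then left out as doublets called by Scrublet. Libraries shared 16 to 36 barcodes per pair, none of them among oocyte-like cells. Clusters were formed without the 9 genes and without the p53 list. A cluster with all 8 oocyte markers, led by genes such as *Gtsf1*, *Dppa3*, *H1foo*, *Zp3* and *Ooep*, was taken as oocyte-like and held 196, 171, 75 and 140 cells in the order above. Their median depth was 181498, 14183, 159208 and 120517.5 UMIs (unique molecules). Of the 171 WT IR cells 27 lay in a sub-cluster of shallow cells, 40 in one led by fibroblast genes and 22 in one led by epithelial genes, with WT IR medians of 2549, 3111 and 23848 UMIs. Another 62 lay in a sub-cluster with a median of 127980.5 UMIs. With 1 library per condition there is no test, and the intervals below cover counting error only.

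In irradiated wild-type oocyte-like cells all 8 genes had higher levels per 10000 UMIs than in the other 3 libraries. The share of cells with a UMI, which also follows depth, differed less for some, such as 35.1% in WT IR and 33.7% in WT nonIR for *Ms4a10*. *9930012K11Rik* had 143 UMIs in WT nonIR and 2069 in WT IR oocyte-like cells, or 0.0494 and 1.55 per 10000 UMIs, a ratio of 31.3 (95% interval 26.4 to 37.3). *Cst6* went from 28 to 1698 UMIs, a ratio of 131 (90.4 to 198), the highest ratio among the genes with a named product. *Gm648* went from 4 to 597 UMIs, a ratio of 323 (125 to 1188).

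The remaining genes had ratios from 7.29 to 82.2. *Acp4* had 182 UMIs in WT nonIR and 1158 in WT IR oocyte-like cells, a ratio of levels of 13.8 (95% interval 11.8 to 16.2), and *Ms4a10* had 127 and 428, a ratio of 7.29 (5.97 to 8.96). *1700007K13Rik* had 54 and 982 UMIs, a ratio of 39.3 (29.9 to 52.7). *Ankrd65* had 9 and 342 UMIs, a ratio of 82.2 (42.8 to 181). *4833428L15Rik* had 2 and 73 UMIs, a ratio of 78.9 (21.1 to 664). The depth of the libraries is divided out of these ratios.

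Most molecules of these genes in the irradiated wild-type library lay in oocytes. Oocyte-like cells held 7.57% of all UMIs of that library but 96.1% of the *Ankrd65*, 95.1% of the *Acp4*, 89.0% of the *4833428L15Rik*, 87.9% of the *Cst6*, 83.5% of the *Gm648*, 78.2% of the *Ms4a10* and 75.02% of the *9930012K11Rik* UMIs. *1700007K13Rik* was the exception, with 38.7%. Without irradiation the share was 94.3% for *Acp4* and 64.8% for *Ms4a10* but 19.5% for *9930012K11Rik*, 15.6% for *Cst6*, 7.14% for *1700007K13Rik* and 3.92% for *Gm648*, where oocyte-like cells held 15.7% of all UMIs. *Ankrd65* had 9 of 12 and *4833428L15Rik* 2 of 3 UMIs there. *Acp4* and *Ms4a10* thus lay largely in oocyte-like cells in both wild-type libraries, as did the few UMIs of *Ankrd65* and *4833428L15Rik*, while *Cst6*, *Gm648* and *9930012K11Rik* were mainly seen outside oocytes in one library and mainly inside in the other.

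In *Chek2*-/- oocyte-like cells the levels with and without irradiation differed by no more than counting error for the 8 genes together. The 8 genes together were at 0.151 per 10000 UMIs in Chek2KO nonIR and 0.172 in Chek2KO IR, a ratio of 1.14 (95% interval 0.945 to 1.38), against 0.190 and 5.49 in wild type, a ratio of 28.9 (26.5 to 31.6). *Acp4* had 57 and 83 UMIs in the Chek2KO oocyte-like cells, a ratio of levels of 0.968 (0.683 to 1.38), and *Ms4a10* 54 and 96, a ratio of 1.18 (0.838 to 1.68). *9930012K11Rik* had 48 and 96 UMIs, a ratio of 1.33 (0.931 to 1.92). *4833428L15Rik* had 0 UMIs in both Chek2KO libraries, which allows up to 0.0031 per 10000 in nonIR and 0.0021 in IR oocyte-like cells by the upper 95% Poisson limit.

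**Figure D3:**
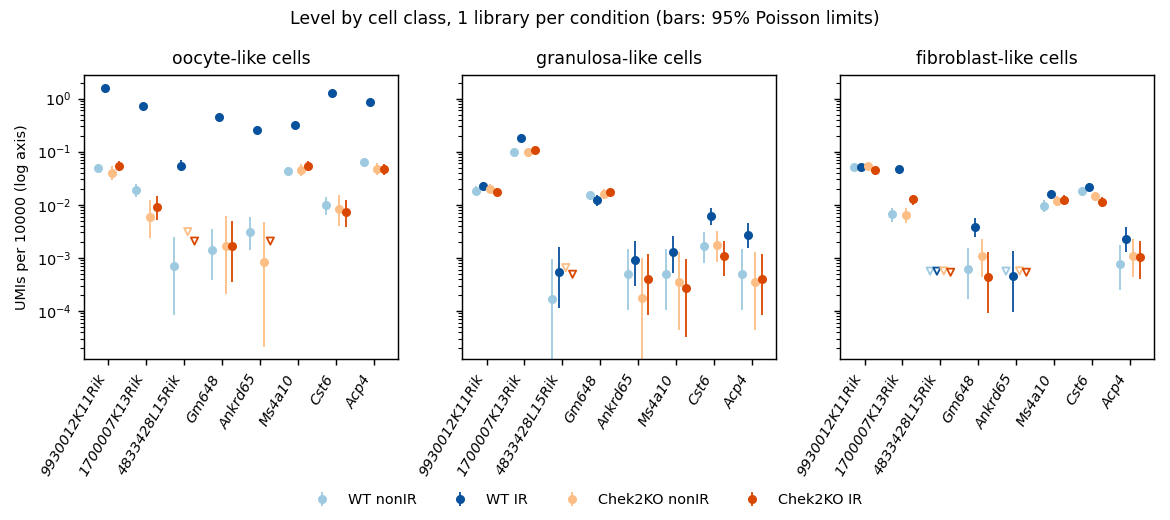
UMIs per 10000 UMIs of each class (log axis) for the 8 genes in oocyte-like, granulosa-like and fibroblast-like cells of the 4 single-cell libraries; bars are 95% Poisson limits and open triangles mark the upper limit where no UMI was seen. WT IR points stand above the other libraries for all 8 genes in oocyte-like cells and, for 1700007K13Rik, Ms4a10, Cst6 and Acp4, in all 3 classes, with limits that overlap for some, such as Cst6 in fibroblast-like cells.

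Single oocytes carried several of the genes at once. Each oocyte-like cell was thinned to 20000 UMIs so that cells could be compared at 1 depth, which kept 154 WT nonIR, 79 WT IR, 67 Chek2KO nonIR and 98 Chek2KO IR cells and left out 92 shallower WT IR cells. The median WT IR cell had a UMI of 5 of the 8 genes, 45 of 79 cells (57.0%) had 5 or more, 2 had all 8 and 8 had none. In the other libraries the median was 0 and no cell had 5 or more. The highest number was 4 in WT nonIR and 2 in both Chek2KO libraries. Without thinning 63 of 171 WT IR cells had 5 or more, against 3 of 196 in WT nonIR and none in the Chek2KO libraries.

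The genes differed in how many thinned WT IR oocyte-like cells showed them. *9930012K11Rik* was seen in 81.0% of the 79 cells (95% binomial interval 70.6 to 89.0), *Cst6* in 73.4%, *Acp4* in 70.9% and *1700007K13Rik* in 69.6%. *Gm648* was seen in 48.1%, *Ankrd65* in 38.0%, *Ms4a10* in 36.7% and *4833428L15Rik* in 13.9%. In thinned WT nonIR oocyte-like cells the highest shares were 6.49% for *9930012K11Rik* and for *Acp4*.

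**Figure D4:**
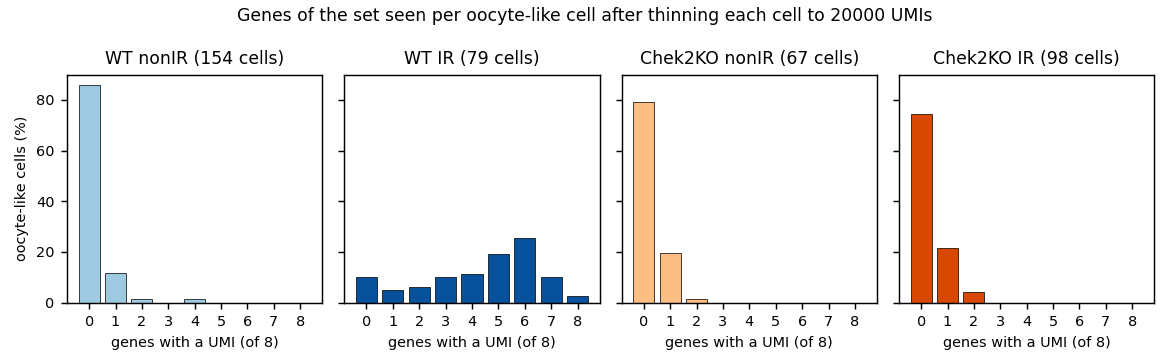
Percent of oocyte-like cells (vertical axis) that held a UMI of 0 to 8 of the genes (horizontal axis) in each single-cell library, after thinning every cell to 20000 UMIs. WT IR cells peak at 6 genes, whereas most cells of the other 3 libraries hold none.

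Within the oocyte-like class the genes were concentrated in 1 of 9 sub-clusters, made from the same cells without the 9 genes. The other genes that led sub-cluster 6 by fold were *Cbr2*, *Slc6a8*, *Fermt3*, *Fermt1*, *Fam212a*, *Procr* and *Plch2*, and since such genes could shape the clustering, the concentration is a description. Sub-cluster 6 held 62 cells, all from WT IR, at a median depth of 127980.5 UMIs, and 6763 of the 7347 UMIs of the 8 genes in WT IR oocyte-like cells. The count also follows the depth of these cells. The level of the 8 genes there was 7.26 per 10000 UMIs, against 5.49 over all WT IR oocyte-like cells. Its cells had 22.3 UMIs of primordial-type oocyte markers per 10000. At least 1 of the genes was seen in 96.8% of these cells, with *9930012K11Rik* in 88.7% and *4833428L15Rik* in 56.5%. Because this sub-cluster holds 1 library only, library and state cannot be told apart.

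In a sub-cluster with markers of growing oocytes the genes were at a lower level than in sub-cluster 6. Because the genes that led sub-cluster 6 could shape the clustering, stage and response cannot be told apart in this comparison. Sub-clusters 0 and 4 had enough markers of growing oocytes to be called growing oocyte-like, and of these sub-cluster 4 held no WT IR cell. Sub-cluster 0 had 107.9 UMIs of these markers per 10000 in its 17 WT IR cells, against 71.1 in sub-cluster 6, and 9.47 of the primordial-type markers. The 8 genes together were at 0.571 per 10000 there (95% interval 0.481 to 0.674), against 0.0546 in the 39 WT nonIR cells of the same sub-cluster. *Acp4* had 62 UMIs in these WT IR cells, *9930012K11Rik* 26, *Ms4a10* 25 and *1700007K13Rik* 19. *Cst6* had 3, *Gm648* 1 and *4833428L15Rik* none, although the first 2 were among the genes with the highest ratios over the whole class. The remaining WT IR cells were 27 in a sub-cluster of shallow cells, 40 in one led by fibroblast genes, 22 in one led by epithelial genes and 3 in one shared with the other libraries, and the level without the first 3 of these groups was 5.86 per 10000.

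*1700007K13Rik* had more UMIs in granulosa-like cells than any of the other genes. In granulosa-like cells it had 598 UMIs in WT nonIR and 985 in WT IR, 0.1002 and 0.177 per 10000, a ratio of 1.77 (95% interval 1.60 to 1.96), against 1.10 (0.988 to 1.23) in Chek2KO cells. In fibroblast-like cells it had 43 and 316 UMIs, a ratio of 7.33 (5.32 to 10.3), and in Chek2KO fibroblast-like cells 41 and 87, a ratio of 2.00 (1.37 to 2.97). A higher WT IR level was seen in each of the 5 fibroblast-like clusters taken alone, for example from 0.0076 to 0.0638 per 10000 in cluster 3 and from 0.0063 to 0.0490 in cluster 6. Epithelial-like cells went from 1 to 39 UMIs and perivascular-like cells from 2 to 25, whereas endothelial-like cells had 4 and 2, a ratio of 0.427 (0.0386 to 2.98). Over all cells used, *1700007K13Rik* had 756 UMIs in WT nonIR and 2540 in WT IR, and *9930012K11Rik* had 735 and 2758. In whole wild-type ovaries their means were 0.227 and 3.97 CPM, and 4.69 and 19.6 CPM. The level of *1700007K13Rik* relative to *9930012K11Rik* thus differed between single-cell and whole-ovary libraries, and the cause was not tested.

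The proportions of the genes differed between oocyte-like and somatic cells. In WT IR the UMIs of *1700007K13Rik* were 0.848 times those of *Acp4* in oocyte-like cells, but 65.7 times in granulosa-like and 21.1 times in fibroblast-like cells. Its level in all cells outside the oocyte-like class was 12.99% of that inside, against 0.348% for the oocyte gene *Ooep* and 0.247% for *Dppa3*. The same share was 0.424% for *Acp4* and 0.335% for *Ankrd65*. Part of these UMIs may be free RNA from oocytes, which was not tested. *Ooep* itself was uneven, at 1.68 per 10000 in WT IR epithelial-like and 0.189 in granulosa-like cells. Thinned to 5000 UMIs, 2.31% of WT IR and 0.292% of WT nonIR fibroblast-like cells had a UMI of *1700007K13Rik*, and 9.63% and 3.59% of granulosa-like cells did. Without thinning these shares were 5.67% and 0.873%, and 29.9% and 20.9%. In thinned Chek2KO granulosa-like cells the share was 5.58% in nonIR and 4.64% in IR, so the nonIR libraries of the genotypes also differed. Each cell was thinned once.

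**Figure D5:**
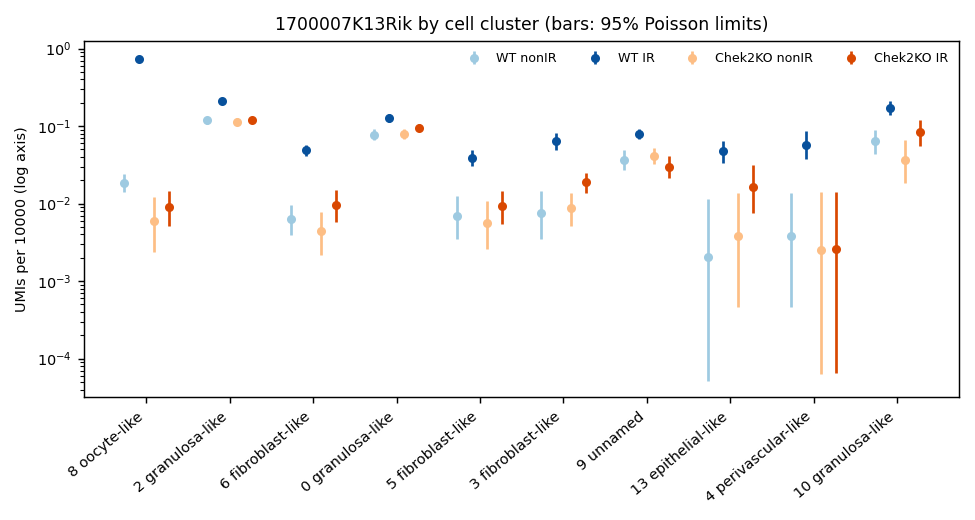
UMIs of 1700007K13Rik per 10000 UMIs (log axis) in the oocyte-like cluster and the 9 other clusters with the most UMIs, for the 4 single-cell libraries; bars are 95% Poisson limits and numbers are cluster numbers. WT IR is above WT nonIR in all 10 clusters, for example 0.208 against 0.119 per 10000 in the granulosa-like cluster 2.

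Several of the other genes were also seen in somatic cells. *9930012K11Rik* was at 0.146 per 10000 in WT nonIR and 0.145 in WT IR epithelial-like cells, and at 0.0511 and 0.0510 in fibroblast-like cells. *Gm648* had 90 UMIs in WT nonIR and 67 in WT IR granulosa-like cells, a ratio of 0.80 (95% interval 0.574 to 1.11), whereas in fibroblast-like cells it had 4 and 25 UMIs, a ratio of 6.23 (2.15 to 24.6). Its WT IR level in fibroblast-like cells was 0.850% of that in oocyte-like cells, against 0.254% for *Ooep* and 0.235% for *Dppa3*, and the part of free oocyte RNA in its 25 UMIs was not tested. *Ms4a10* had 63 and 104 UMIs in fibroblast-like cells, a ratio of 1.65 (1.19 to 2.29), and *Cst6* 119 and 143, a ratio of 1.20 (0.933 to 1.54). In granulosa-like cells *Cst6* had 10 and 34 UMIs, a ratio of 3.65 (1.76 to 8.29). *Acp4* had 3 and 15 UMIs in granulosa-like cells, a ratio of 5.37 (1.52 to 28.9), and 5 and 15 in fibroblast-like cells, a ratio of 2.99 (1.03 to 10.5). These WT IR levels of *Acp4* were 0.0027 and 0.0023 per 10000, against 0.866 in oocyte-like cells. *Ooep* was at 0.189 and 0.220, against 86.8. The part of free oocyte RNA in the *Acp4* and *Cst6* UMIs was not tested. *4833428L15Rik* and *Ankrd65* had at most 5 UMIs in granulosa-like or fibroblast-like cells of any library.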

How the data were processed

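Whole-ovary RNA (24 libraries) and single cells (4 libraries) were analysed by genotype and treatment. The genes and lists were chosen with earlier results of these data known. According to the labels and methods, reads were trimmed with Trim Galore 0.6.5, and Salmon 1.3.0 gave the estimated counts per gene that the authors deposited, unscaled. The single-cell files hold whole UMI counts deposited by the authors after Cell Ranger (mm10). Estimated counts were rounded, genes with under 10 counts in all were left out, and all groups were fitted together after TMM in edgeR 4.0.16 (R 4.3.3), with p-values adjusted (Benjamini-Hochberg) over 26790 genes. DESeq2 1.42.0, limma 3.58.1, other filters, a replicate block and omission of each library were alternatives. Counts were simulated for the *Chek2*-/- comparison over 26790 genes. There 78% of 100 genes changed 2-fold and 90% of 100 changed 4-fold passed the adjusted p threshold in edgeR. The 2-fold minimum used for the real libraries was not applied to these shares. Genes changed 2-fold had a median absolute log2 change of 1.027, near that minimum, so their share may be lower with it. The simulated levels were means over all libraries, and only genes above a minimum mean count were changed. These shares may not hold for genes with few or no reads in *Chek2*-/- ovaries, such as *Gm648*, *Cst6*, *Ankrd65* and *4833428L15Rik*. Depth per library is given above, and 3 counts over 6 libraries came to 0.0181 to 0.0201 CPM where a floor is used.

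Cells with at least 1000 genes, up to 20% mitochondrial and up to 50% ribosomal UMIs were kept. Scrublet doublets were removed in scanpy 1.11.5. Leiden clustering (resolution 0.5) used 2000 variable genes, 30 components and 15 neighbours. A class name needed 3 of its markers, each at 2-fold and in 10% of cells, and oocyte-like cells were clustered again. Limits are exact Poisson or Clopper-Pearson at 95%. Genes named were the 9, *Chek2*, list genes past the threshold (at most 4 per list), class markers, and per gene the 3 most alike by Pearson's r. *Mark3*, *Mrps2*, *Dscaml1* and *Ccar2* are named for their position, and *Sohlh1*, *Lhx8* and *Ano3* after their values were seen.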

Additional observations from a re-analysis of the deposited data

Results flagged for a closer look

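In irradiated wild-type ovaries *9930012K11Rik* was at 30.4 CPM in replicate 4, far from the next highest library at 18.3 CPM. The same library had the highest summed epithelial markers of its group, at 1061 CPM against 432 to 690 CPM. It had the lowest sum of 8 oocyte markers, at 1991 CPM, and the part of these markers in the value of *9930012K11Rik* was not tested. Without this library the wild-type log2 fold change of *9930012K11Rik* was 1.90, against 2.06. By Dixon's test this was 1 of 33 groups of 6 libraries tested over the 9 genes, and chance flags about 1 in 20.

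The response of 4 p53-pathway genes differed between genotypes by the test of the difference itself (edgeR quasi-likelihood test of the interaction). The *Chek2*-/- change was smaller than the wild-type change by 1.47 on the log2 scale for *Ccng1* (−1.47, edgeR adjusted p = 8.1e-13), 1.31 for *Mdm2* (−1.31, edgeR adjusted p = 4.1e-11), 1.25 for *Eda2r* (−1.25, edgeR adjusted p = 9.4e-08) and 1.44 for *Bbc3* (−1.44, edgeR adjusted p = 8.1e-06). In *Chek2*-/- ovaries *Ccng1* still rose by 0.56 (edgeR adjusted p = 6.8e-07) and *Eda2r* by 0.53 (edgeR adjusted p = 0.0043), in 6 of 6 libraries each, under the 2-fold minimum. These 4 are the genes of the list with the smallest wild-type adjusted p, so their wild-type change also chose them. Over the whole list 20 of 35 genes had an edgeR adjusted p of up to 0.05 for the difference, all 20 with the smaller change in *Chek2*-/- ovaries. The difference is not given for the 9 genes, whose wild-type change was used to choose them.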

How the results depend on the processing

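The number of the 9 genes called in *Chek2*-/- ovaries was 0, and that of their neighbours in wild-type ovaries 0, under each of the 31 alternatives run. Among these were DESeq2, limma-voom, other filters, no minimum fold, the replicate block, each library left out in turn, and, chosen after seeing the data, 5 libraries left out. The 9 wild-type log2 fold changes kept their sign in all 270 values, which is a description only, since that change chose the genes. The 9 *Chek2*-/- ones stayed uncalled in all 270. Those of *4833428L15Rik*, with 0 counts, could not be called. Small *Chek2*-/- values changed sign, such as *Cst6* (0.31, and −0.45 without the 5 libraries). All genes called in wild-type ovaries were 288, 646 without a minimum fold, 227 with filterByExpr, 324 without the 5 libraries and 241 to 327 with 1 library left out. All genes called in *Chek2*-/- ovaries were 1, 9 by DESeq2, 3 without a minimum fold, 0 without the 5 libraries and 0 to 2 with 1 library left out. They were 0 without *Chek2*-/- IR replicate 4 or *Chek2*-/- nonIR replicate 3, and 2 without wild-type IR replicate 6. The p53 list had 12, and 21 without a minimum fold (11 to 14 with 1 library left out, 14 without the 5). Called relatives were 2, but 0 by DESeq2, limma-voom, filterByExpr or without the 5 libraries, 4 without a minimum fold and 0 to 3 with 1 library left out, with 0 without wild-type IR replicate 3 or any 1 wild-type nonIR library and 1 without *Chek2*-/- nonIR replicate 3. The cause of these changes was not tested.

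Replicate numbers were not taken as pairs, since the labels give no shared litter or day and not every pair was alike. Over 12 same-numbered pairs the deviations from the group means correlated from −0.063 to 0.351, 6 of them over 0.1, and 5 irradiated libraries were closest to their own number. With the replicate block 0 of the 9 genes were called in *Chek2*-/- ovaries, and 262 and 1 of all genes in the wild-type and *Chek2*-/- comparisons, 13 of the p53 list and 0 relatives. In single cells the level of the 8 genes in WT IR oocyte-like cells was 5.49 per 10000, and 5.86 without 3 sub-clusters, chosen after seeing the data, and other alternatives gave 5.44 to 5.53. The 5.86 lay outside the counting interval of that level, 5.37 to 5.62. Of 55 other single-cell levels 53 stayed within their counting interval. Depth limits shares of cells with a UMI: the WT IR median was 14183 UMIs over the oocyte-like class and 127980.5 in sub-cluster 6.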
